A study of Oryctolagus cuniculus with 18 samples.

Results

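RPE-choroid collected 2 months after vitrectomy and filling of the eye with poly(CEP) was compared with RPE-choroid of non-operated eyes. These are 6 of the 18 samples of the series, 3 in each group, chosen by their labels alone. All samples came from male New Zealand White rabbits, which were 4 to 6 months old when purchased, per the study's methods. The methods do not give the age at collection for each group. In the operated eyes the vitreous, the clear gel that fills the eye, was removed and replaced with poly(CEP), a thermogelling polymer of poly(ethylene glycol), poly(propylene glycol) and poly(ε-caprolactone), without induction of retinal scarring. The non-operated eyes had neither surgery nor polymer. The study's methods also describe an ointment of tobramycin and dexamethasone on the treated eyes after surgery. Surgery, ointment and polymer therefore cannot be told apart in this comparison, and no group of the series had vitrectomy alone. The study lists its 2-month eyes of this kind as fellow eyes of eyes used for a scarring model, and the sources used here do not say which of them were sequenced. The labels name the tissue retinal pigment epithelium (RPE), while the study's methods describe a patch of RPE with choroid, peeled from the sclera after the retina had been pulled off.

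The RPE is a single layer of pigmented cells behind the photoreceptors. It takes up shed outer segments, recycles the retinoid of the visual pigments and forms the outer blood-retinal barrier. The choroid beneath it is a vascular and stromal layer with endothelium, fibroblasts, melanocytes and immune cells, and it supplies the outer retina. The photoreceptor tips interlock with the RPE, so that a peeled retina can leave cells or fragments on the RPE surface. How much of it stays behind differs from dissection to dissection, and it adds retinal transcripts to an RPE-choroid sample. In bulk tissue, fewer cells of a kind and less RNA per cell cannot be told apart.

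The measure was the number of reads per gene. Genes held 25958919 to 28956726 counts in a 2-month sample and 26759641 to 33505730 in a non-operated sample. The rabbit Ensembl identifiers of the count table could be paired with no gene symbol here. Genes are thus described by groups, set by the tissue that holds more of their transcript, and the label of the tissue could not be checked against named RPE or choroid genes. Levels of single genes are given as library-normalised counts (the usual CPM scale, on which each library has the same total) after TMM scaling, which adjusts for the composition of each library, and lists of genes as a mean of log2 CPM.

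The amount of retinal transcript differed widely within each group of RPE-choroid samples. It was followed with the 200 genes whose log2 CPM in non-operated retina exceeded that in non-operated RPE-choroid the most, out of those reaching a log2 CPM of 5 on average in non-operated retina. The mean log2 CPM of these retina-high genes was 5.19, -0.44 and 6.56 in non-operated RPE-choroid replicates 1, 2 and 3. In the 2-month samples it was 4.47, 4.55 and -0.86 in the same order, against 7.40 to 7.49 in the 3 non-operated retina samples. One sample of each group, non-operated replicate 2 and 2-month replicate 3, was thus almost without these transcripts, and non-operated replicate 3 held the most. The label of non-operated replicate 2 carries an added number that its count column lacks, so that the column may be another library of this sample. Set against the level in non-operated retina, the median gene of the list stood at 20.7%, 0.436% and 54.9% in non-operated replicates 1, 2 and 3. It stood at 14.4%, 14.8% and 0.223% in 2-month replicates 1, 2 and 3. The groups overlapped. The 2-month mean was 2.72 ± 3.10 log2 CPM (SD, n = 3) and the non-operated mean 3.77 ± 3.71 (SD, n = 3), which differed by -1.05 (two-sided exact permutation p = 0.5, where 3 samples against 3 cannot give less than 0.1). This difference turned to 0.34 without non-operated replicate 3 and to 0.74 without 2-month replicate 3.

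The genes of RPE-choroid itself varied less. The 200 genes with the largest excess in non-operated RPE-choroid over non-operated retina, chosen in the same manner, had a mean log2 CPM of 7.53, 7.98 and 6.44 in non-operated replicates 1, 2 and 3. In 2-month replicates 1, 2 and 3 it was 7.32, 7.35 and 7.91. Non-operated replicate 3, the sample richest in retinal transcript, was the lowest of the 6. The means were 7.53 ± 0.33 (SD, n = 3) and 7.32 ± 0.79 (SD, n = 3), a difference of 0.21 (two-sided exact permutation p = 0.9). Both lists were chosen with the non-operated samples of this comparison.

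**Figure D1:**
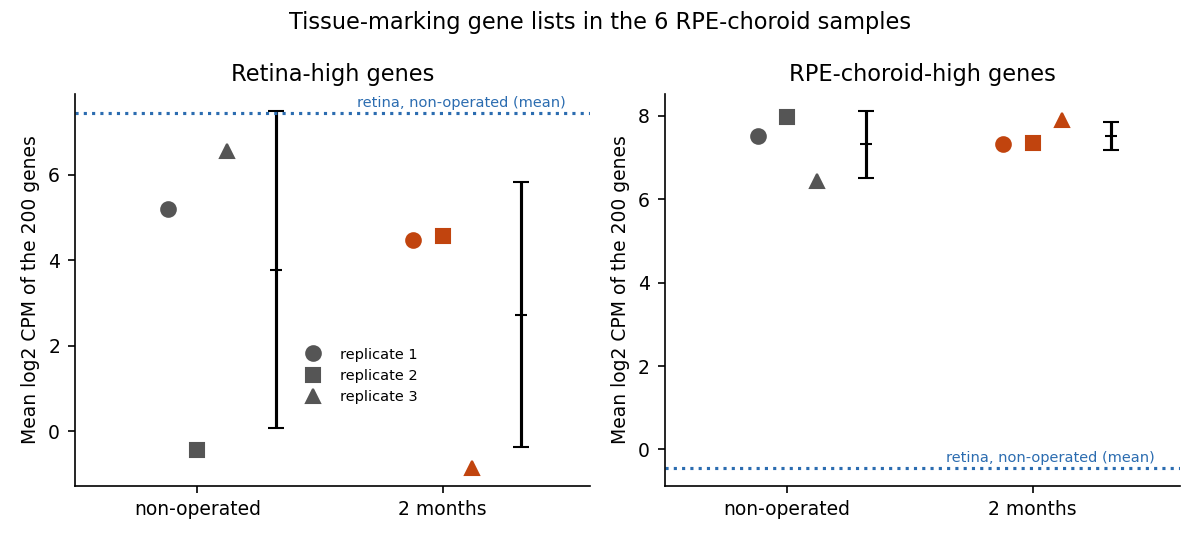
Mean log2 CPM of the 200 retina-high genes (left) and the 200 RPE-choroid-high genes (right) in 3 non-operated and 3 poly(CEP)-filled RPE-choroid samples at 2 months. Symbols mark the replicate, bars the mean ± SD, and the dotted line the mean of 3 non-operated retina samples. Each group holds 1 sample almost without retinal transcript, at -0.44 and -0.86.

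For all genes, the preference was the mean log2 CPM in non-operated retina minus that in non-operated RPE-choroid. Genes more than 2-fold higher in retina were called retina-preferring, those with the same excess in RPE-choroid were called RPE-choroid-preferring, and those within 2-fold shared. Retina-preferring genes took 9.09%, 3.01% and 21.1% of the gene counts in non-operated replicates 1, 2 and 3, and 7.50%, 7.34% and 2.93% in the 2-month samples in the same order. RPE-choroid-preferring genes took 30.8%, 38.9% and 18.1% in the non-operated samples and 31.7%, 32.6% and 38.7% in the 2-month samples. The share of the shared genes was steadier, 58.1% to 60.8% in non-operated and 58.3% to 60.8% in 2-month samples. Among retina-preferring genes, those with at least 10 counts numbered 2432, 1753 and 2578 in non-operated and 2391, 2374 and 1694 in 2-month replicates 1, 2 and 3. Both samples low in the retina-high list thus also held the fewest retina-preferring genes. Among RPE-choroid-preferring genes, 3283 to 3555 reached 10 counts in non-operated and 3472 to 3500 in 2-month samples.

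To ask which genes differed after 2 months, all 9 RPE-choroid samples, with the 3 of the 1-month eyes, were fitted with edgeR's quasi-likelihood model, and the p-values of the 16322 genes tested were adjusted by the Benjamini-Hochberg method. In this test 0 genes (0% of those tested) had an adjusted p under 0.05, and the smallest adjusted p was 0.0636. An unadjusted p under 0.05 was found for 1117 genes higher at 2 months (6.84% of those tested) and for 629 lower ones (3.85%). In 1525 genes all 3 operated samples lay above all 3 non-operated ones (9.34% of those tested), and in 1018 they lay below (6.24%). With DESeq2, the tool of the study, 241 genes were higher (1.36%) and 102 lower (0.577%) at an adjusted p under 0.05. Of the 238 and 95 of these that edgeR also tested, 234 (98.3%) and 79 (83.2%) had no overlap between the groups. Calls and overlap rest on the same samples, so these shares are not a separate check of the calls. The edgeR counts depended on single libraries. Without 2-month replicate 3 there were 8 in the higher and 16 in the lower direction, without non-operated replicate 2 there were 1 and 1, and without non-operated replicate 3 there were also 1 and 1.

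The log2 fold change at 2 months was ordered by the preference of the genes. The median log2 fold change over all genes tested was -0.01, and 48.6% were higher. Among 2624 retina-preferring genes the median was -0.56 (quartiles -1.04 and -0.16) and 18.3% were higher. Among 10127 shared genes the median was -0.02 (quartiles -0.19 and 0.17), with 47.8% higher. Among 3571 RPE-choroid-preferring genes it was 0.31 (quartiles -0.03 and 0.72), with 73.2% higher. At an unadjusted p under 0.05, 27 retina-preferring genes were higher and 162 lower (1.03% and 6.17% of the group, against 6.84% and 3.85% of all genes). In the RPE-choroid-preferring group the order was the other way, with 581 higher and 32 lower (16.3% and 0.896%). The shared group was nearly even, with 509 higher and 435 lower (5.03% and 4.30%). Of 668 RPE-choroid-preferring genes, 18.7% of the group against 9.34% of all genes, the 3 operated samples lay above the 3 non-operated ones, and of 34 (0.952%) they lay below. For shared genes these numbers were 834 (8.24%) and 914 (9.03%), and for retina-preferring genes 23 (0.877%) and 70 (2.67%). DESeq2 called 238 of the 16322 genes higher (1.46%) and 95 lower (0.582%). In the RPE-choroid-preferring group it called 148 higher (4.14% of the group) and 6 lower (0.168%). Among shared genes there were 85 (0.839%) and 65 (0.642%), and among retina-preferring genes 5 (0.191%) and 24 (0.915%).

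**Figure D2:**
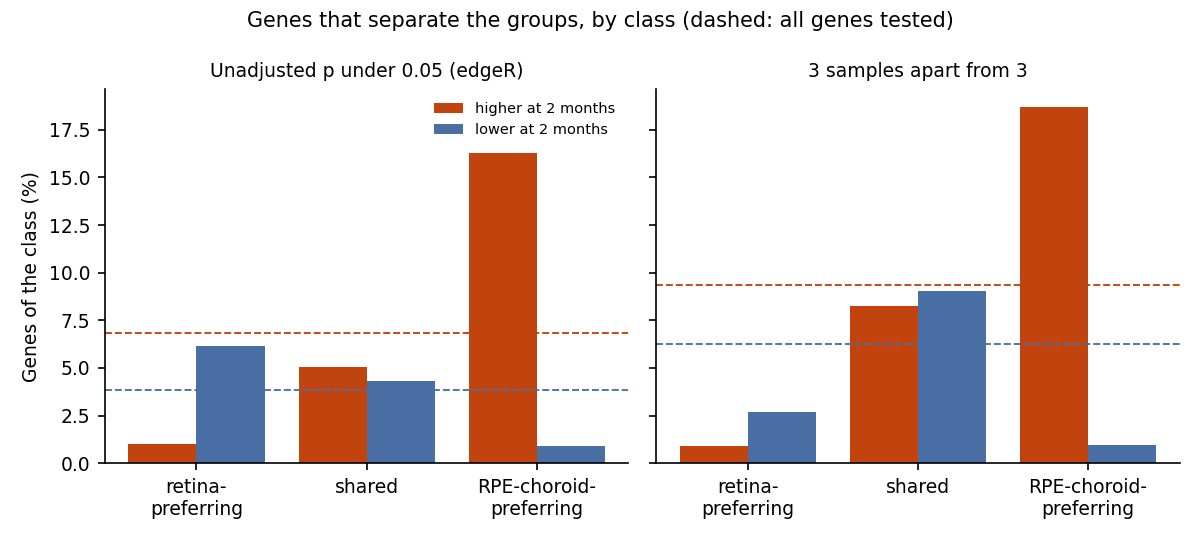
Percentage of the genes of each preference group that were higher or lower at 2 months at an unadjusted p under 0.05 in edgeR's quasi-likelihood test (left) or without overlap between 3 operated and 3 non-operated samples (right). Dashed lines give the percentage over all 16322 genes tested. RPE-choroid-preferring genes stand above the lines for higher genes (16.3% and 18.7%).

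The preference above shares the non-operated RPE-choroid samples with the comparison, so that a gene high in them by chance is more readily called RPE-choroid-preferring and also appears lower at 2 months. A second preference was therefore taken from non-operated retina and 1-month RPE-choroid, which are outside the comparison. The 1-month samples held much retinal transcript themselves, with a retina-high mean between 5.55 and 6.59 log2 CPM, so that fewer genes came out as retina-preferring. With this preference the medians were -0.87 for 1228 retina-preferring, -0.04 for 12000 shared and 0.45 for 3094 RPE-choroid-preferring genes, and 6.84%, 44.8% and 80.1% were higher. At an unadjusted p under 0.05, 0 retina-preferring genes were higher (0%) and 201 lower (16.4%), against 6.84% and 3.85% of all genes. For RPE-choroid-preferring genes these were 674 (21.8%) and 17 (0.549%), and for shared genes 443 (3.69%) and 411 (3.42%). The order of the groups was thus the same under both preferences. By both, 884 genes were retina-preferring, 9428 shared and 2697 RPE-choroid-preferring, and 42 were placed in opposite groups, 39 of them retina-preferring in non-operated eyes and 3 the reverse.

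Finer steps of the preference were ordered on the retina side but not on the RPE-choroid side. Among genes 2- to 4-fold higher in non-operated retina than in RPE-choroid the median log2 fold change was -0.38 (1524 genes), among those 4- to 16-fold higher -0.93 (1057 genes), and above 16-fold -1.08 (43 genes). On the other side, it was 0.22 for 2- to 4-fold (1369 genes), 0.40 for 4- to 16-fold (1371 genes) and 0.33 above 16-fold (831 genes). With the preference from outside the comparison, the same steps gave -0.80 (1071 genes), -1.80 (149 genes) and -3.48 (only 8 genes) on the retina side, and 0.36 (1411 genes), 0.56 (1156 genes) and 0.48 (527 genes) on the RPE-choroid side.

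**Figure D3:**
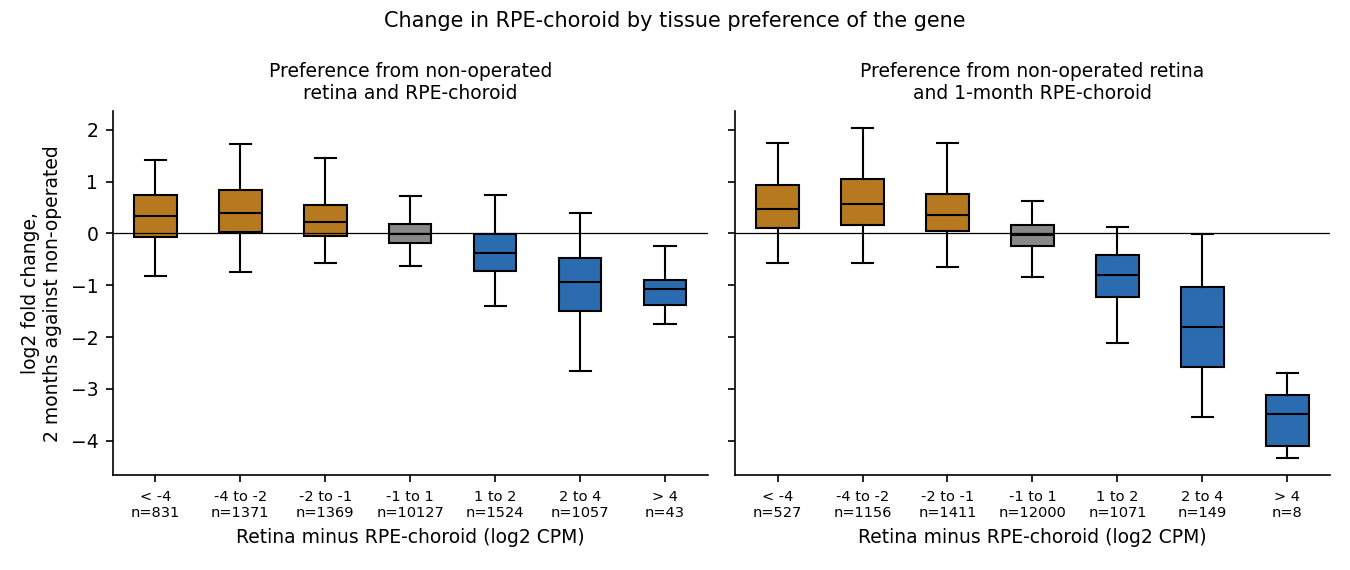
Log2 fold change in RPE-choroid, 2 months against non-operated (vertical axis), by the log2 CPM difference between retina and RPE-choroid (horizontal axis), with the preference taken from non-operated eyes (left) or from samples outside the comparison (right). Boxes give the quartiles and the median, whiskers the 5th and 95th percentiles, and n the genes, with 43 and 8 in the last bins. Medians are above 0 for RPE-choroid-preferring and below 0 for retina-preferring genes.

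Single samples did not follow this order alike. Relative to the mean of the non-operated samples, the median retina-preferring gene was 0.18 and 0.15 log2 units higher in 2-month replicates 1 and 2 and -1.38 in replicate 3. In non-operated replicates 1, 2 and 3 it was 0.18, -1.25 and 1.16. The spread within either group was wider than the difference between them. The median RPE-choroid-preferring gene was 0.26, 0.36 and 0.48 log2 units above that mean in 2-month replicates 1, 2 and 3, and 0.12, 0.49 and -0.60 in the non-operated samples. Here the 3 operated samples lay close together and non-operated replicate 3 stood low, while non-operated replicate 2 was above all 3 operated samples. The median shared gene stayed between -0.06 and 0.03 in all 6 samples.

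For the 9 pairs of 1 operated and 1 non-operated sample, the difference in the retina-high list was set beside these medians. The pair closest in the retina-high list was 2-month replicate 3 with non-operated replicate 2, both almost without retinal transcript, which differed by -0.42. Their medians differed by 0.00 for retina-preferring and -0.01 for RPE-choroid-preferring genes. In these samples only 1694 and 1753 retina-preferring genes reached 10 counts, and a gene without counts in both samples differs by 0. The value of 0.00 therefore does not measure an absence of change. 2-month replicates 1 and 2 against non-operated replicate 1, which differed in the list by -0.72 and -0.64, gave -0.11 and -0.13 for retina-preferring genes and 0.13 and 0.22 for RPE-choroid-preferring genes. In the pairs furthest apart, 2-month replicate 3 against non-operated replicate 3, the list differed by -7.42, and the medians were -2.51 and 1.10. Against non-operated replicate 2, the 2-month replicates 1 and 2 held more retinal transcript, by 4.91 and 4.99, and the signs were turned, with 1.42 and 1.37 for retina-preferring genes and -0.24 and -0.17 for RPE-choroid-preferring genes. With the preference from outside the comparison, the 3 closest pairs gave -0.29, -0.45 and -0.49 for retina-preferring and 0.12, 0.28 and 0.37 for RPE-choroid-preferring genes. The pairs share samples and are given as a description. The retina-high list was chosen by the preference of non-operated eyes, which also sets the groups. List and medians are therefore not independent and were in part bound to move together.

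**Figure D4:**
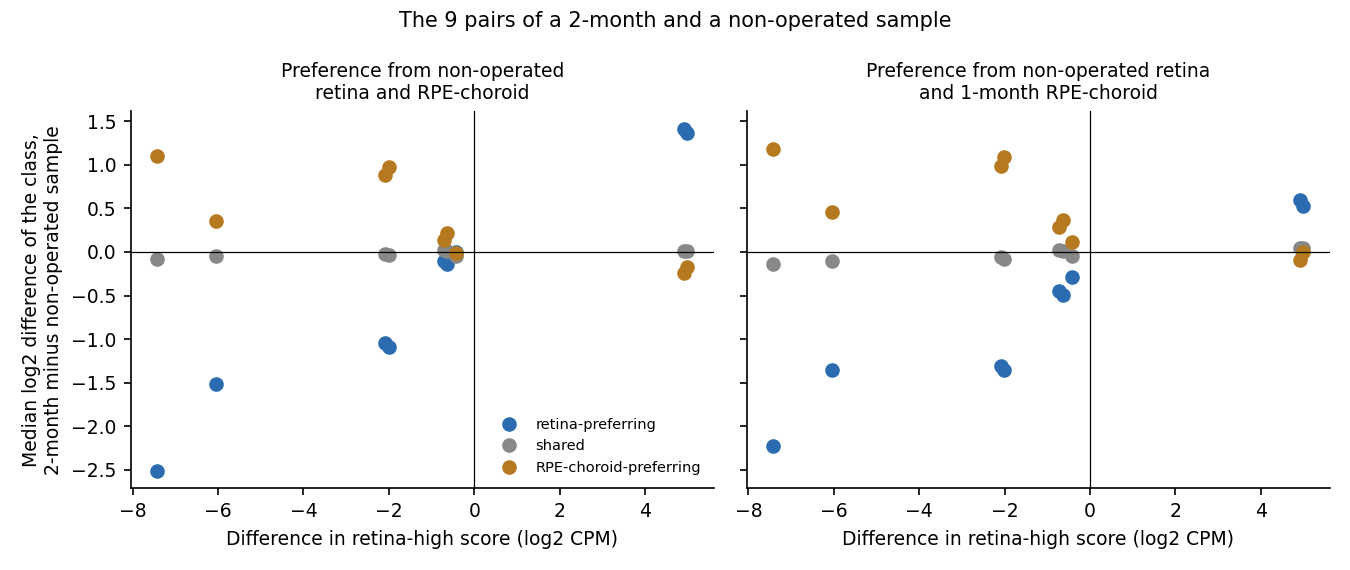
Median log2 difference of each preference group between a 2-month and a non-operated RPE-choroid sample (vertical axis) against their difference in the mean log2 CPM of the retina-high genes (horizontal axis), for the 9 pairs and both preferences. In the pair that differs most in retinal transcript retina-preferring genes are at -2.51 (left) and -2.23 (right), and where the operated sample holds more they reach 1.42 and 0.60. The axes are not independent, since the retina-high genes were chosen by the preference used on the left.

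The result by preference depended on single non-operated samples. Without non-operated replicate 3 the median became 0.11 for retina-preferring genes, a turn of direction, and 0.05 for RPE-choroid-preferring genes, of which 53.3% were then higher. With the preference from outside the comparison the medians without this sample were -0.33 and 0.23, with 25.1% and 63.6% higher. Without non-operated replicate 2, the sample almost free of retinal transcript, the medians were -0.96 and 0.57. With the retina-high mean of each sample as a covariate in the edgeR fit, the median retina-preferring gene was at -0.01. The median RPE-choroid-preferring gene was at 0.26. With the preference from outside the comparison these values were -0.41 and 0.41. The retina-high list was chosen by the same preference as the retina-preferring group, so the value of -0.01 was in part set by that choice. The fit with this covariate gave 2 genes in the higher and 0 in the lower direction at an adjusted p under 0.05. Without adjustment it gave 1578 and 890.

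The precision of the comparison also differed between the groups of genes. The common biological coefficient of variation of the RPE-choroid samples was 0.416. The median standard error of the log2 fold change was 0.21 for shared, 0.41 for RPE-choroid-preferring and 0.74 for retina-preferring genes. Between replicates, the median SD of log2 CPM was 0.20 at 2 months and 0.23 in non-operated eyes for shared genes, 0.33 and 0.63 for RPE-choroid-preferring genes, and 0.91 and 1.25 for retina-preferring genes. Over all genes tested, the estimate was beyond 2-fold for 895 in the higher (5.48%) and 1001 in the lower direction (6.13%), and 547 and 248 of these had an unadjusted p under 0.05. Among retina-preferring genes, it was beyond 2-fold for 69 (2.63% of the group) and 716 (27.3%), of which 24 and 124 had such a p. For RPE-choroid-preferring genes these were 524 (14.7%) and 98 (2.74%), with 354 and 26 at such a p. Of the shared genes, 302 (2.98%) and 187 (1.85%) were beyond 2-fold, with 169 and 98.

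The 4 genes described next had the smallest p of those without overlap between the groups, which was a condition for choosing them, and none passed the adjusted threshold. ENSOCUG00000000786 had 13.3, 13.9 and 11.7 CPM in the non-operated replicates and 38.0, 43.7 and 32.4 CPM in the 2-month replicates. The lowest operated sample was the one almost without retinal transcript. Its means were 13.0 ± 1.13 and 38.0 ± 5.64 CPM (SD, n = 3), which is 1.56 on the log2 scale (SE of the log2 fold change 0.15, adjusted p = 0.0636 in edgeR). The gene was within 2-fold between the tissues in non-operated eyes, with 8.26 ± 1.41 CPM (SD, n = 3) in retina. In 1-month RPE-choroid, which shares the non-operated samples, its log2 fold change was 0.50 (edgeR adjusted p = 0.133), and in retina at 2 months it was 0.20 (SE 0.31, adjusted p = 0.695 in edgeR). ENSOCUG00000013290 had 37.2, 32.2 and 38.4 CPM in the non-operated and 71.0, 85.4 and 82.8 CPM in the 2-month replicates. The 3 non-operated samples were close together, and the log2 fold change was 1.17 (SE 0.14, adjusted p = 0.150 in edgeR). At 1 month its log2 fold change was -0.30, and in retina at 2 months it was -0.77 (SE 0.30, adjusted p = 0.120 in edgeR).

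By the preference of non-operated eyes all 4 genes were shared. By that from outside the comparison ENSOCUG00000000786 was RPE-choroid-preferring, with a preference of -1.14, ENSOCUG00000017136 was retina-preferring, with 1.03, and the other two were shared. ENSOCUG00000017136 had 120 CPM, 114 CPM and 171 CPM in non-operated replicates 1, 2 and 3 and 66.6, 56.4 and 61.0 CPM in the 2-month replicates. Non-operated replicate 3, the sample with the most retinal transcript, was the highest. The log2 fold change was -1.12 (SE 0.17, adjusted p = 0.261 in edgeR). The same gene fell in retina at 2 months, with 101 ± 11.3 CPM against 193 ± 41.5 in non-operated eyes (SD, n = 3). There its log2 fold change was -0.91 (SE 0.17, adjusted p = 0.00876 in edgeR). ENSOCUG00000000184 had 81.7, 83.6 and 87.2 CPM in non-operated and 40.8, 36.3 and 50.5 CPM in 2-month replicates, and its log2 fold change was -0.96 (SE 0.15, adjusted p = 0.261 in edgeR). Its 3 non-operated values were close together, which the choice of genes with a small p and no overlap favoured. In retina its log2 fold change was -0.52 (SE 0.18, adjusted p = 0.0872 in edgeR). At 1 month the log2 fold changes in RPE-choroid were -0.52 for ENSOCUG00000017136 and -0.30 for ENSOCUG00000000184 (edgeR adjusted p = 0.144 and 0.292). DESeq2 called all 4 genes, with an adjusted p of 6.64e-05 or less.

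**Figure D5:**
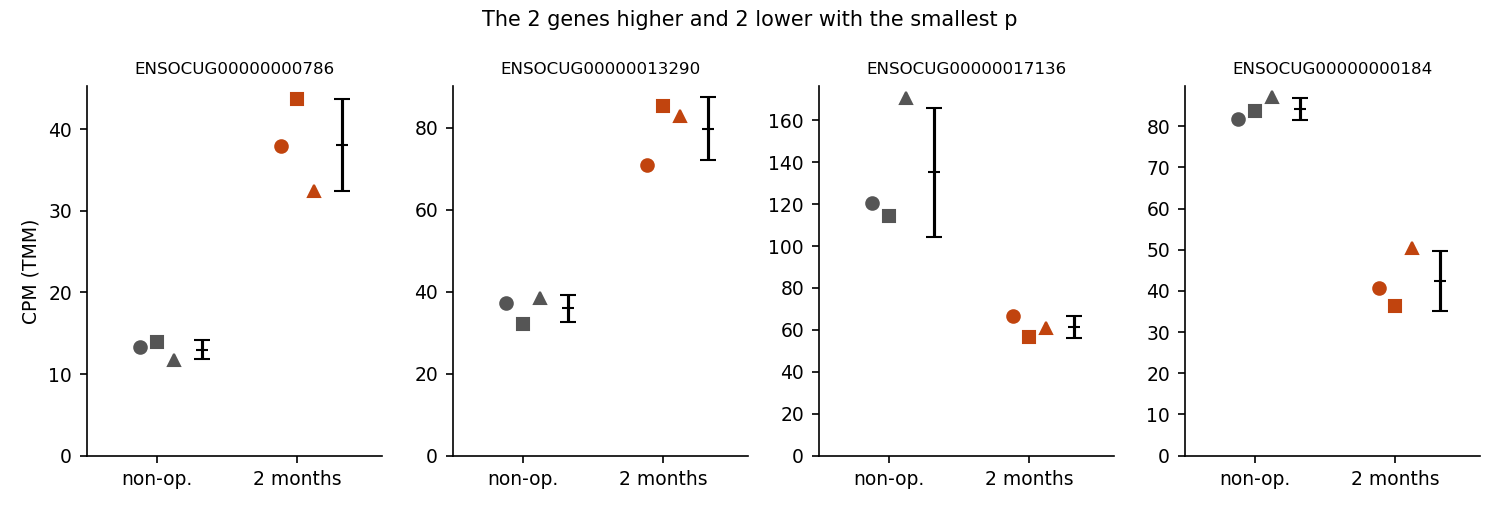
CPM of the 2 genes higher and the 2 genes lower with the smallest edgeR p, in 3 non-operated (grey) and 3 2-month (orange) RPE-choroid samples. Symbols mark replicates 1 (circle), 2 (square) and 3 (triangle) and bars the mean ± SD. The genes were chosen among those without overlap, and their means range from 13.0 to 135 CPM in non-operated samples.

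Retina of the same study groups, with non-operated samples of its own, was set beside RPE-choroid. In retina at 2 months edgeR called 1304 of 15878 genes higher (8.21%) and 474 lower (2.99%). Of 805 shared genes with all 3 operated above all 3 non-operated RPE-choroid samples, 663 (82.4%) were also higher in operated retina, against 45.5% of all 10005 shared genes tested in both tissues. There, 139 of the 805 (17.3%) were called higher in retina, against 3.75% of all shared genes, and these 139 were 37.1% of the 375 shared genes called higher in retina. Of 911 shared genes without overlap in the lower direction, 82 (9.0%) were called lower in retina, against 2.47%, and these were 33.2% of the 247 called. In RPE-choroid-preferring genes, 295 of 557 (53.0%) without overlap and higher were called higher in retina, against 29.2% of the 2859 tested in both tissues. Of all 2859, 82.9% were higher in operated retina. The mean of the RPE-choroid-high genes was also higher in all 3 operated than in all 3 non-operated retina samples, and its part in these shares was not tested. Among retina-preferring genes, 3 of 22 (13.6%) were called higher, against 2.75%, and 9 of 70 (12.9%) lower, against 7.86%. Whether samples of the same number came from the same eye is not stated, and these shares were not tested. The percentage of reads aligned to several places was higher in all 3 operated than in all 3 non-operated RPE-choroid samples, with an exact permutation p of 0.1 (0.6 after Benjamini-Hochberg adjustment over 6 measures). It was 13.7%, 13.2% and 9.96% in 2-month and 9.01%, 9.32% and 8.03% in non-operated RPE-choroid replicates 1, 2 and 3. In retina it was 11.7%, 11.1% and 8.44% at 2 months and 8.08% to 9.38% in non-operated eyes, so that the groups overlapped there. With this percentage as a covariate in the RPE-choroid fit of edgeR, 553 genes in the higher and 185 in the lower direction had an unadjusted p under 0.05. An adjusted p under 0.05 was found for 0. The percentage itself separated the groups, so this fit cannot part it from the change at 2 months.

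The difference between the tissues was tested with an interaction term, in an edgeR model of the 18 samples together. The change at 2 months differed for 88 of 16846 genes (0.522%) at an adjusted p under 0.05, and for 80 of these it was the more negative in RPE-choroid. Of the 3575 RPE-choroid-preferring genes 78 differed (2.18%), 75 of them more negative in RPE-choroid, while 9 of 10406 shared and 1 of 2865 retina-preferring genes did. With the preference from outside the comparison, 80 of 3144 RPE-choroid-preferring genes differed (2.54%), 77 of them more negative in RPE-choroid. Beside this result, the mean log2 CPM of the RPE-choroid-high genes in retina was between 0.25 and 1.15 in the 2-month samples and between -0.52 and -0.39 in the non-operated ones, and its part in the result was not tested. Of the 4 genes above, ENSOCUG00000013290 differed, with a log2 fold change 1.93 higher in RPE-choroid than in retina (adjusted p = 0.0223 in edgeR), although its adjusted p was 0.0519 or more in 9 of the 12 fits without 1 of the samples compared. For the other three the adjusted p of the interaction in edgeR was 0.205 or more. The count of 88 depended on the libraries. It was 0 without 2-month RPE-choroid replicate 2 and 15 without replicate 1. Without non-operated RPE-choroid replicates 1, 2 and 3 it was 50, 46 and 180. Leaving out 1 retina sample gave 10 to 18, except without 2-month retina replicate 3, which gave 228.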

How the data were processed

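Per the study's methods, reads were trimmed by the authors (Trim Galore), aligned with HISAT2 to the OryCun2.0 assembly of the rabbit and assigned to genes with HTSeq. Tool versions are not given in the sources used here. The deposited values are raw counts of 29587 Ensembl genes without normalisation. The 5 summary rows (reads outside genes, ambiguous, unaligned or aligned to several places) held 46.6% to 52.9% of the reads of a sample and stayed out of library sizes and tests.

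From these counts, edgeR 4.0.16 in R 4.3.3 was run on the 9 RPE-choroid samples (TMM, filterByExpr at 10 counts per sample and 15 in total, robust two-sided quasi-likelihood test, threshold of 0.05 on the Benjamini-Hochberg adjusted p). The retina fit and the interaction were made alike with the 9 retina samples and all 18. Log2 CPM used TMM over 18 samples and a prior count of 2. DESeq2 1.42.0 was the main alternative, and the others were the replicate block, RLE, upper-quartile and shared-gene scaling, filters, sets of samples and left-out libraries. The scripts were tested on simulated counts. Over all genes together, replicates differed by more than counting error. The part of counting error in genes with few counts was not measured.

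The comparison, the preference groups and the alternatives were chosen with earlier results of these data known. The covariate of reads aligned to several places, the left-out libraries under the outside preference or in the interaction, and the joint use of the outside preference and the retina-high covariate were added after the data were seen. The named genes are the 2 higher and 2 lower with the smallest edgeR p whose mean log2 CPM reached 1 and whose groups did not overlap. The reference table of gene names, with 38822 rows, matched 0 identifiers. Marker and NRF2 gene lists were for this reason not run. Replicates are separate biological samples per the study's methods. The 2-month eyes it lists belong to separate rabbits, and for the non-operated eyes this is not stated, so the p-values measure the spread between these samples. All pairs within a group differed by more than sampling noise (chi-square per degree of freedom of 19.7 or more).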

Additional observations from a re-analysis of the deposited data

Results flagged for a closer look

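The change at 2 months differed between RPE-choroid and retina for 88 genes in the interaction test of edgeR, of which 80 were more negative in RPE-choroid. ENSOCUG00000013290 was one of them, with a log2 fold change 1.93 higher in RPE-choroid than in retina. Without 1 of the 12 samples its difference ranged from 1.72 to 2.37, and in 9 of the 12 fits its adjusted p was between 0.0519 and 0.0827.

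Reads aligned to several places, which enter no gene count, made up 13.7%, 13.2% and 9.96% of the reads of 2-month RPE-choroid replicates 1, 2 and 3, above the highest non-operated sample at 9.32%. The means were 12.3% ± 2.02 and 8.79% ± 0.671 (SD, n = 3). The exact permutation test gave a two-sided p of 0.1, the smallest possible, and 0.6 after Benjamini-Hochberg adjustment over the 6 measures compared.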

How the results depend on the processing

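The count of genes past the adjusted threshold was 0 in both directions with the replicate block, RLE, upper-quartile scaling, TMM on shared genes, no low-count filter, the 6 samples alone and the covariate of reads aligned to several places. DESeq2 gave 241 higher and 102 lower, at least 10 counts in every sample 1 higher, all 18 samples 1 higher and 5 lower, and the retina-high covariate 2 higher. Without 1 sample the counts were 0 to 8 higher and 0 to 16 lower. The median of RPE-choroid-preferring genes was 0.15 with the covariate of reads aligned to several places, under which that of retina-preferring genes was -1.16, and 0.45 with the preference from outside the comparison. Without 1 sample it ranged from 0.0499 to 0.57, that of retina-preferring genes from -0.96 to 0.11 and that of shared genes from -0.04 to 0.00. The difference in the retina-high mean ranged from -3.15 to 0.74 without 1 sample. The interaction count of 88 became 21 with the replicate block, 280 with DESeq2, and 0 to 228 without 1 sample.

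The replicate numbers come from the labels. The deviations of same-numbered 2-month and non-operated samples correlated by 0.310, -0.545 and -0.593 (mean -0.276), and 0 of 3 samples correlated best with their own number. The replicate block left 938 genes higher and 458 lower at an unadjusted p under 0.05. The cause of these differences was not tested.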

Other observations

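Among the 9428 genes that were shared by both preferences, the estimates were wider at low levels. The median absolute log2 fold change was not larger than the median standard error in any range of levels. For 4455 genes with a mean log2 CPM above 5 the median standard error was 0.16 and 7 genes were estimated beyond 2-fold in the higher and 11 in the lower direction. For 1197 genes at a mean log2 CPM of 1 or less it was 0.53, with 103 and 94 genes beyond 2-fold in these directions. In the highest range 318 genes had no overlap in the higher direction (7.14%) and 457 in the lower (10.3%), against 9.34% and 6.24% of all genes tested. In the lowest range these were 101 (8.44%) and 83 (6.93%).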
